A study of Mus musculus with 5 samples.

Results

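The E2F transcription factors and the retinoblastoma (Rb) pocket proteins were examined as 10 genes, E2f1 to E2f8, Rb1 and Rbl1, in 5 end-stage medulloblastomas, tumours of the cerebellum, from mice. The members were fixed by gene symbol. Of 19057 genes named on the arrays these are 10, measured by 25 of the 45281 probes of the Illumina bead arrays, with 1 array per tumour. All tumours carried SmoA2, an activated form of the hedgehog signal transducer Smoothened. In addition, 2 tumours had the genotype MyoD+/-;SmoA2, with 1 intact copy of the muscle transcription factor gene Myod1, and 3 had the genotype MyoD+/+;SmoA2 with both copies. The series was made to ask if the genes of muscle differentiation respond when a copy of Myod1 is lost. MyoD is known to act with Rb when muscle precursors leave the cell cycle. The labels name neither the promoter that drives SmoA2 nor the age and sex of the mice. Xist, which is expressed from the inactive X chromosome of females, stood at 11.06 and 4.64 on the log2 scale in MyoD+/- tumours, against 10.58, 4.57 and 4.61 in MyoD+/+ tumours, so that each genotype held 1 tumour with high Xist. The labels also do not state that the tumours are from different mice, and p-values therefore reflect only the spread among these samples, which may be technical.

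E2F proteins bind DNA together with a DP partner and switch on the genes for entry into S phase. Pocket proteins bind E2Fs and silence these genes until cyclin-dependent kinases phosphorylate them. E2F1, E2F2 and E2F3 are classed as activators, E2F4 and E2F5 as repressors that work with pocket proteins, E2F6 as a repressor within a Polycomb complex, and E2F7 and E2F8 as repressors that bind without a DP partner. Granule neuron precursors, the cells from which hedgehog-driven medulloblastoma arises, divide through this pathway.

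Several genes of the family are themselves E2F targets, so their promoters are shown with the E2F recognition words that they hold. RefSeq promoter windows (build GRCm38.p6, 250 bases before to 50 after a gene's start) were at hand for 7 of the 10 members, in 9 windows. They were searched on both strands for the words TTTCCCGC, TTTGGCGC, TTTCGCGC and TTTGCCGC. A word was found in 4 windows, those of E2f2, E2f3, E2f7 and Rbl1, given here 5′ to 3′ on the strand of the gene with the word, or its reverse complement, in capitals.
E2f2, chr4:136172024-136172323, plus strand: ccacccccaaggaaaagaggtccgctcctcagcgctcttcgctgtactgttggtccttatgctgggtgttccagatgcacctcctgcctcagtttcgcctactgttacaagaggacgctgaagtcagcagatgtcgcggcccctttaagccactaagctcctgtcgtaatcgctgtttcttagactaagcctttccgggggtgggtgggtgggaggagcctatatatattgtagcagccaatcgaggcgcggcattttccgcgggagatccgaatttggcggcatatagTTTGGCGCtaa
E2f3, chr13:29986014-29986313, minus strand: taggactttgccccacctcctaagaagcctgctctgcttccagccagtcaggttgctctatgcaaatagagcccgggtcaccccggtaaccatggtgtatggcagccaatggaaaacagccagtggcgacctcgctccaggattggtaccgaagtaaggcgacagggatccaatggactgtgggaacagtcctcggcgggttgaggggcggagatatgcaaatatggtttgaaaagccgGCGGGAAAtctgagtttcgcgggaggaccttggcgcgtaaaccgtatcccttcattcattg
E2f7, chr10:110745189-110745488, plus strand: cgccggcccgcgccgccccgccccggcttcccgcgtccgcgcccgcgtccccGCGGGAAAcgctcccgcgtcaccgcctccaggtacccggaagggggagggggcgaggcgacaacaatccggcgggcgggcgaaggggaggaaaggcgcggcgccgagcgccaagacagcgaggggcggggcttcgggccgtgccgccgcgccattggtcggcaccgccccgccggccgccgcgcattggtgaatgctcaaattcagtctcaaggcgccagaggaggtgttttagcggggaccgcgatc
Rbl1, chr2:157204485-157204784, minus strand: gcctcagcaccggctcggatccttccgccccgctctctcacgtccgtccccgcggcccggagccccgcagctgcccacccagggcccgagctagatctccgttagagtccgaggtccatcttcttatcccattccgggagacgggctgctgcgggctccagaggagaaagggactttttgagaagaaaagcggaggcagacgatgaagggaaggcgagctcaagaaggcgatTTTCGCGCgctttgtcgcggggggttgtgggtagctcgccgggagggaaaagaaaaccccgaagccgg

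Counting the first base after the start as 1 and the base before it as -1, the word began at -18 in Rbl1, -11 in E2f3, -198 in E2f7 and 40 in E2f2. Among all 32851 windows, 2.26% held an E2F word, and among windows of the genes tested here 3.80% did. Of the 26 tested G1/S target genes listed for E2F that had a window, 13 held it. The E-box CAGCTG, a word that MyoD binds, was found in 1 member window, that of Rbl1, against 16.3% of all windows. A match describes the sequence and is not a binding site shown here. The other windows of E2f2 and E2f3 and the windows of E2f1, E2f6 and E2f8 held no E2F word. Each window covers a listed start, which need not be the main start of the gene, and sequence outside the windows was not searched. The lack of a word in a window, as for E2f1, therefore does not show that the gene's promoter lacks it.

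Signals were background-corrected, quantile-normalized and put on a log2 scale, as all levels below are given. A probe counted as detected on an array where its detection p was under 0.05, and a probe was tested if detected on at least 2 of the 5 arrays. Arrays detected 37.0% to 39.9% of all probes, MyoD+/+ tumour 2 being the lowest, at median signals of 133.6 to 148.1. Myod1 stood at 6.31 and 6.67 in MyoD+/- tumours, against 7.25, 6.38 and 7.08 in MyoD+/+ tumours, and the groups overlapped. The sources used here do not say if its probe lies in the deleted part of the gene. Of 12 granule neuron precursor markers with a probe, 8 passed the filter, while Atoh1, Pax6, Mycn and Gli1 did not.

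Of the 25 member probes, 16 passed the filter, 12 were detected in all 5 tumours and 8 in none. By gene, 7 members had a probe detected in every tumour (E2f1, E2f2, E2f4, E2f5, E2f6, Rb1 and Rbl1). E2f3 was detected in both MyoD+/- tumours and in 1 of 3 MyoD+/+ tumours, and E2f7 in both MyoD+/- tumours and in 0 of 3 MyoD+/+ tumours. E2f8 was the 1 member that failed the filter, at 4.52 and 4.40 in MyoD+/- tumours, against 4.44, 4.49 and 4.56 in MyoD+/+ tumours. Detection depended on the probe as well as the gene. Of 17 member probes designed on a RefSeq transcript 12 passed, against 47.6% of all probes named through such a transcript. Of 8 designed on a cDNA clone 4 passed, against 31.5% of all probes named through another accession. The clone probes all belong to E2f6, E2f7 and Rbl1, so these counts mix accession type with gene. E2f2 and E2f5 each had a RefSeq probe detected in 0 tumours beside others detected in all 5, so a probe that is not detected does not show that the transcript is absent.

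**Figure D1:**
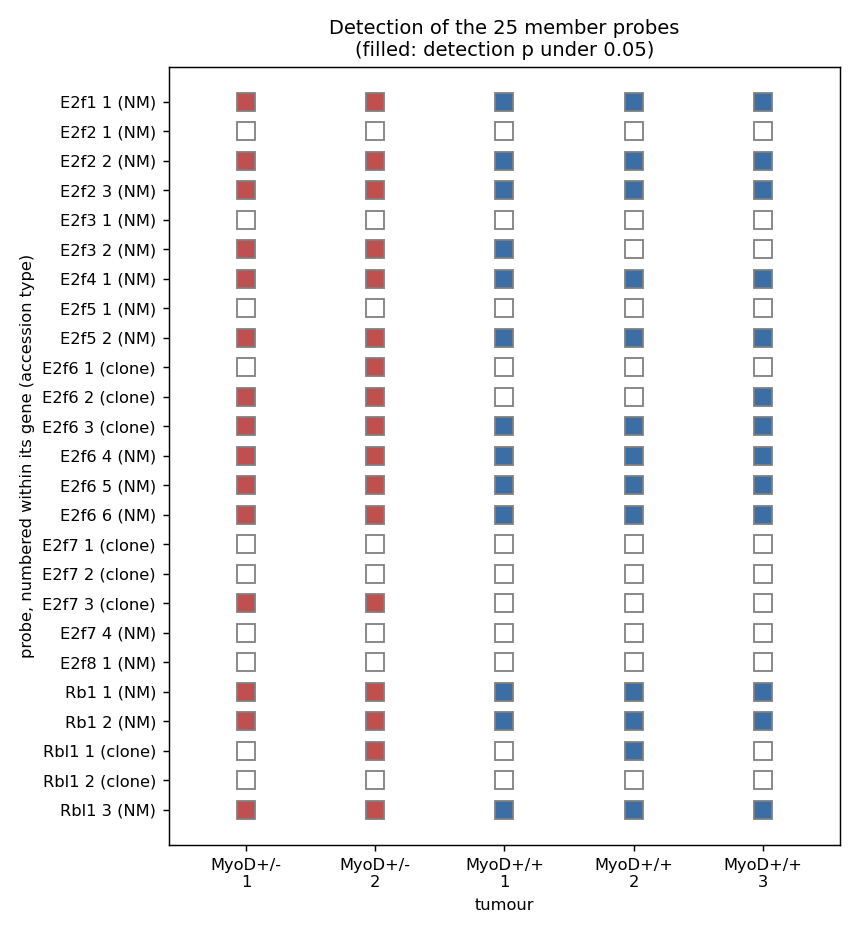
Detection of the 25 member probes (rows, numbered within each gene, with NM for a RefSeq transcript and clone for a cDNA clone) in the 2 MyoD+/- and 3 MyoD+/+ tumours (columns). Filled squares mark a detection p under 0.05. E2f7 has filled squares in the MyoD+/- columns only, and E2f8 has none.

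No member differed between the genotypes after correction. In limma, 0 of 9 tested members passed an adjusted p of 0.05, as did 0 of all 10474 genes (0%), and 1 member, E2f3, had an unadjusted p under 0.05, as did 5.26% of all genes. In the fit of every probe, 0 of the 16 member probes passed (0% of all 18675 probes) and 1 had an unadjusted p under 0.05, against 5.2% of all probes. For 8 of the 9 tested members the 95% interval lay within 2-fold either way, Rbl1 being the exception, and 87.7% of all genes had such an interval. The intervals refer to normalized values, and the offset added there shrinks the differences of dim probes. In bulk tumour RNA, a difference in the number of cells that express a gene and one in RNA per cell cannot be told apart.

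Of the activators, E2f1 and E2f2 were detected in every tumour and E2f3 was near the detection limit. E2f1, an activator that can also trigger cell death, stood at 10.36 and 10.34 in MyoD+/- tumours, against 10.24, 10.51 and 10.27 in MyoD+/+ tumours. Both MyoD+/- values lay inside the MyoD+/+ range. MyoD+/- minus MyoD+/+ came to 0.01 ± 0.17 (SE over 2 and 3 tumours; 95% interval -0.39 to 0.42; limma adjusted p = 0.997), or folds of 0.762 to 1.33. Its sign turned without MyoD+/+ tumour 1 (-0.0399) or tumour 3 (-0.0246).

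E2f2, an activator that acts redundantly with E2f1 and E2f3, stood at 8.60 and 8.32 in MyoD+/- tumours, against 8.31, 7.98 and 8.50 in MyoD+/+ tumours on its brightest probe. The groups overlapped, with MyoD+/- tumour 1 highest and MyoD+/+ tumour 2 lowest. The difference was 0.19 ± 0.21 (SE; limma adjusted p = 0.963). A different detected probe gave 8.33 and 7.93 in MyoD+/- tumours, against 8.15, 7.66 and 7.99 in MyoD+/+ tumours, also 0.19 apart (SE 0.22). The value on the brightest probe was 0.05 without MyoD+/- tumour 1 or without MyoD+/+ tumour 2.

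E2f3, which encodes activator and shorter isoforms from separate starts and is needed for normal cell cycle entry in cultured mouse fibroblasts, was dim. Its detected probe stood at 5.58 and 5.74 in MyoD+/- tumours, against 5.31, 5.32 and 4.95 in MyoD+/+ tumours. Both MyoD+/- tumours lay above all MyoD+/+ tumours. The difference was 0.47 ± 0.19 (SE; 95% interval 0.03 to 0.92; unadjusted p = 0.0409, limma adjusted p = 0.936), a fold of 1.39, which did not pass. It was 0.14 without background correction. The other E2f3 probe, on the same RefSeq transcript, was detected in 0 tumours and read 4.79 and 4.92 in MyoD+/- tumours, against 5.11, 4.80 and 4.63 in MyoD+/+ tumours. These values are not above background.

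**Figure D2:**
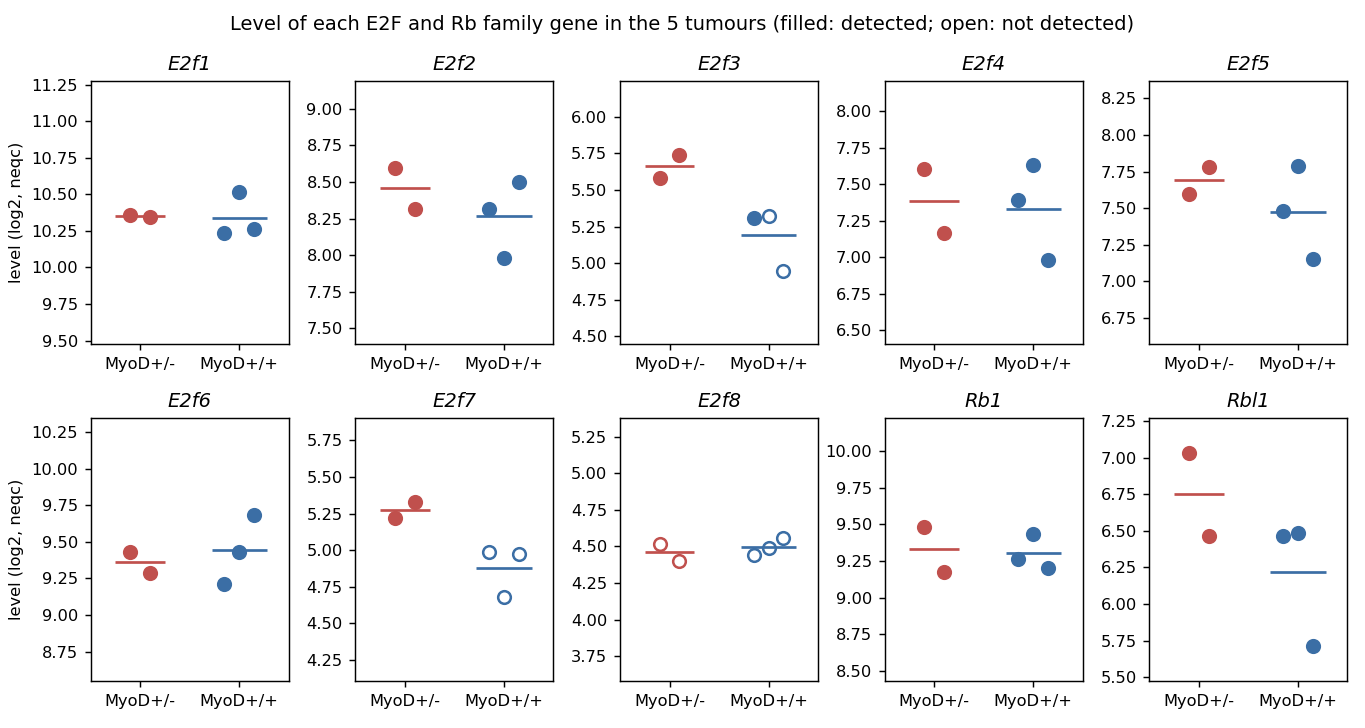
Level (log2, normalized) of the probe that stands for each member in the 2 MyoD+/- tumours (left in each panel) and the 3 MyoD+/+ tumours (right). Each panel spans the same height, horizontal bars are group means, and open circles mark tumours in which the probe was not detected. The groups separate for E2f3 and E2f7 and overlap for the other members.

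The repressors E2f4 and E2f5 were detected in all 5 tumours. E2f4, the main E2F of resting cells, stood at 7.60 and 7.17 in MyoD+/- tumours, against 7.39, 7.63 and 6.98 in MyoD+/+ tumours. The difference was 0.05 ± 0.24 (SE; 95% interval -0.52 to 0.63; limma adjusted p = 0.994), and it turned to -0.17 without MyoD+/- tumour 1 and to -0.12 without MyoD+/+ tumour 3. E2f5, a close relative of E2f4, stood at 7.60 and 7.78 in MyoD+/- tumours, against 7.48, 7.79 and 7.15 in MyoD+/+ tumours. MyoD+/+ tumour 3 was the lowest for both genes. The E2f5 difference was 0.22 ± 0.22 (SE; 95% interval -0.31 to 0.74; limma adjusted p = 0.963), and 0.06 without MyoD+/+ tumour 3.

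E2f6, a repressor that lacks the pocket protein binding region, had 6 probes, of which 5 passed, and these split by design. The 3 probes on the RefSeq transcript had a lower mean in MyoD+/- than in MyoD+/+ tumours, and the 2 tested clone probes a higher one, none past the threshold. The brightest RefSeq probe (probe 4) stood at 9.43 and 9.29 in MyoD+/- tumours, against 9.21, 9.43 and 9.68 in MyoD+/+ tumours, and differed by -0.08 ± 0.19 (SE; limma adjusted p = 0.987). Probe 6 stood at 8.88 and 9.08 in MyoD+/- tumours, against 9.19, 9.49 and 9.50 in MyoD+/+ tumours. There the groups did not overlap (-0.41 ± 0.19, SE; limma adjusted p = 0.947 over all probes). Probe 5 also separated the groups, at 6.69 and 6.43 in MyoD+/- tumours, against 6.70, 6.87 and 6.99 in MyoD+/+ tumours (-0.29 ± 0.19). The clone probes gave 0.28 ± 0.21 (probe 2) and 0.13 ± 0.26 (probe 3), with overlapping groups. Probe 2 was near the detection limit, detected in both MyoD+/- tumours and 1 of 3 MyoD+/+ tumours, so it needed its high group to pass. Probe 3 is thus the 1 clone probe detected in all 5 tumours. Clone probe 1 was detected in MyoD+/- tumour 2 only and was not tested. Whether the RefSeq and clone probes differ in their genotype difference was not tested.

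E2f7 and E2f8, the repressors with a pair of DNA-binding domains that restrain E2F1 targets late in the cell cycle, were at or below the detection limit in most tumours. The brightest E2f7 probe (probe 3) stood at 5.22 and 5.33 in MyoD+/- tumours, against 4.99, 4.68 and 4.97 in MyoD+/+ tumours, where it was not well above background. The group means were 5.28 and 4.88 (limma adjusted p = 0.945). With the MyoD+/+ values raised to the lowest detected level of each array, the MyoD+/- mean was 1.02-fold higher. That value has no sampling error and does not establish a difference. The MyoD+/- levels themselves lay close to the lowest detected levels of their arrays, 5.20 and 5.18. E2f7 passed the filter through the MyoD+/- tumours alone, so its presence among the tested members favours a positive value. Probe 4, on a RefSeq transcript and detected in 0 tumours, read 5.06 and 5.16 in MyoD+/- tumours, against 4.80, 4.39 and 4.65 in MyoD+/+ tumours. Those values are not above background, and neither are those of probes 1 and 2, which read between 4.43 and 4.59 in every tumour.

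Of the pocket proteins, Rb1 encodes the retinoblastoma protein itself, which binds the activator E2Fs. On its brighter probe (probe 2) it stood at 9.49 and 9.17 in MyoD+/- tumours, against 9.26, 9.44 and 9.20 in MyoD+/+ tumours. The groups overlapped (0.03 ± 0.18, SE; 95% interval -0.40 to 0.46; limma adjusted p = 0.996). Probe 1 read 8.82 and 8.42 in MyoD+/- tumours, against 8.69, 9.31 and 8.61 in MyoD+/+ tumours, with the opposite sign (-0.26 ± 0.26). MyoD+/+ tumour 2 was the highest on probe 1. The Rb1 difference turned to -0.13 without MyoD+/- tumour 1, to -0.02 without MyoD+/+ tumour 3 and to -0.11 as a mean of both probes, so its sign is not settled by these arrays.

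Rbl1 encodes the pocket protein p107, which joins E2F4 and is made in dividing cells. Its brightest probe (probe 3) stood at 7.03 and 6.47 in MyoD+/- tumours, against 6.46, 6.48 and 5.71 in MyoD+/+ tumours. MyoD+/- tumour 1 was the highest and MyoD+/+ tumour 3 the lowest, and the other 3 tumours lay close together. The difference was 0.53 ± 0.30 (SE; 95% interval -0.16 to 1.22; limma adjusted p = 0.945), or a fold of 1.44 with an interval from 0.893 to 2.34. With 1 tumour left out it ranged from 0.25 (without MyoD+/- tumour 1) to 0.81 (without MyoD+/- tumour 2), with 0.28 when MyoD+/+ tumour 3 was left out and 0.66 when MyoD+/+ tumour 2 was. Without background correction it was 0.22. With the title letters as a block it was 0.65 (unadjusted p = 0.0127, limma adjusted p = 0.588). A clone probe (probe 1), detected in MyoD+/- tumour 2 and MyoD+/+ tumour 2 alone, gave 0.22 ± 0.22.

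**Figure D3:**
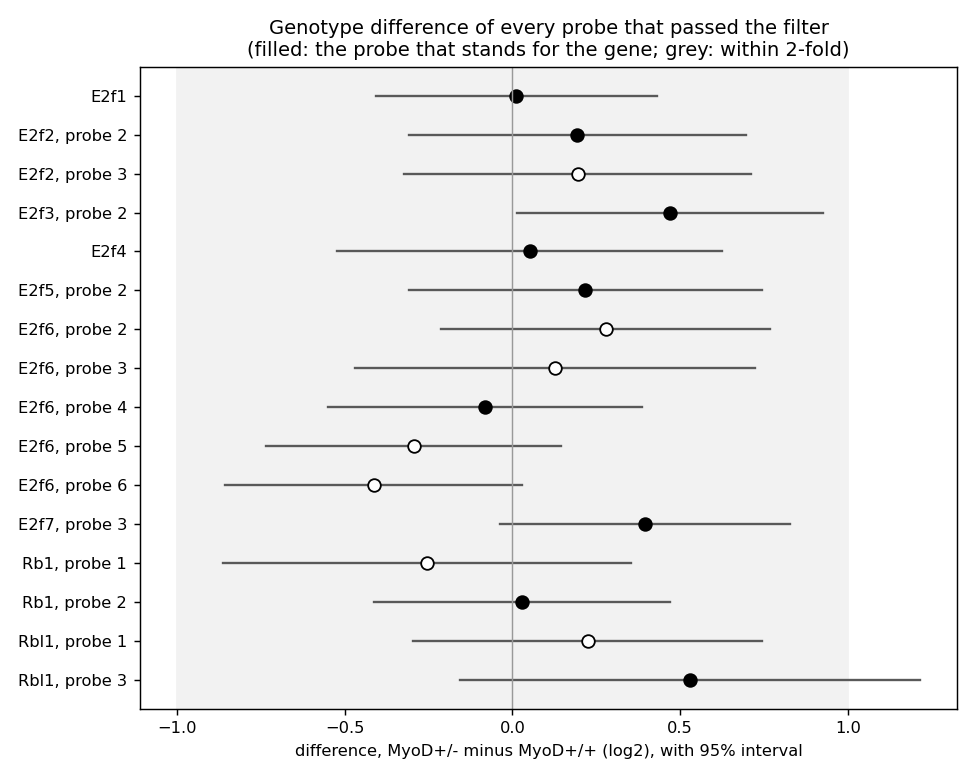
Difference in level, MyoD+/- minus MyoD+/+ (log2, horizontal axis), with its 95% interval for each of the 16 member probes that passed the filter (vertical axis). Filled points stand for the gene and the grey band spans a 2-fold change either way. The interval of E2f3 alone lies above 0, from 0.01 in this fit over probes, and that of Rbl1 probe 3 alone reaches past 2-fold.

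Read across the family, the differences were small and mostly positive. Of the 9 tested members 8 were above 0, with a median of 0.19, against 49.6% of all genes with a median of 0.00. Without E2f7 these were 7 of 8 and 0.12. Of the 16 tested probes 12 were above 0, against 51.2% of all probes. Among the 12, those of E2f3 and E2f7 and E2f6 probe 2 were detected in both MyoD+/- tumours and in at most 1 MyoD+/+ tumour. They therefore needed the higher group to pass the filter. The groups did not overlap, with MyoD+/- higher, in 2 of the 9 members (E2f3 and E2f7), against 10% of all genes, and with MyoD+/- lower in 0 of 9, against 10.9%. Without E2f7, which passed the filter through its high group alone, MyoD+/- was higher without overlap in 1 of 8. That member is E2f3, detected in both MyoD+/- tumours and in 1 of 3 MyoD+/+ tumours, so it too needed its high group to pass. The counts without E2f7 thus still hold a member that the filter favoured. Among the 16 probes, 2 separated the groups with MyoD+/- higher (E2f3 and E2f7), against 10.6% of all probes, and 2 with MyoD+/- lower (both E2f6), against 10.1%. The count of members above 0 was 9 of 9 with median scaling, which moved the median of all genes to 0.14, 6 of 9 without MyoD+/- tumour 1 (median 0.05) and 6 of 9 without MyoD+/+ tumour 3 (median 0.06). It was 6 of 7, with a median of 0.05, when detection at p under 0.01 in every tumour of a group was required, which removed E2f3 and E2f7.

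**Figure D4:**
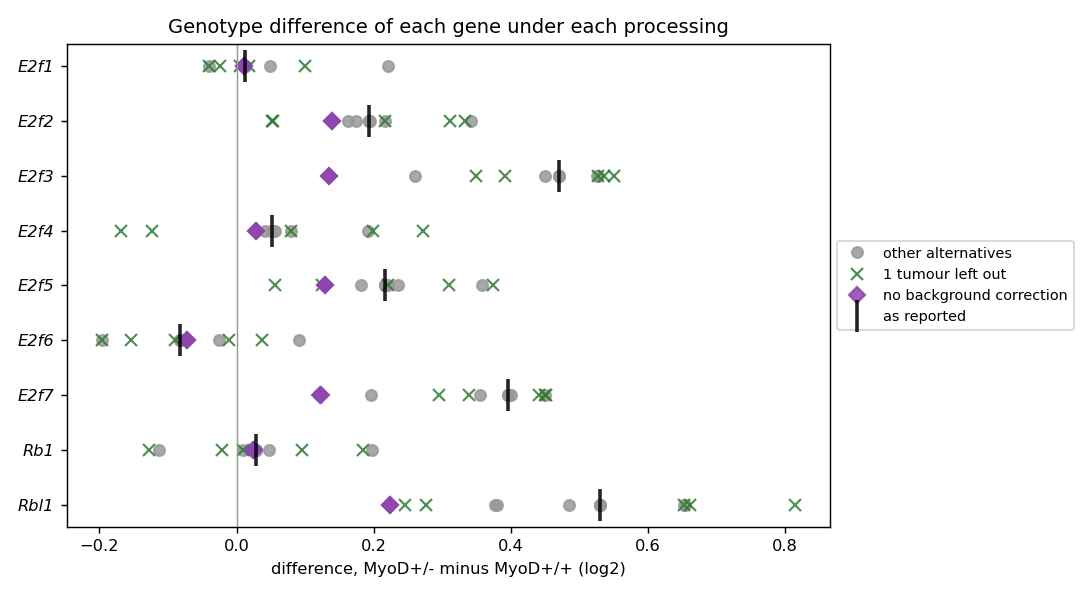
Genotype difference of each tested member (log2, MyoD+/- minus MyoD+/+) as reported (vertical tick), without background correction (diamonds), with 1 tumour left out (crosses) and under the other alternatives (grey). E2f2, E2f3, E2f5, E2f7 and Rbl1 stay above 0 throughout, between 0.05 and 0.81, while E2f1, E2f4, E2f6 and Rb1 cross it.

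Neither of the tested DP partner genes passed. Tfdp1, which encodes the DP1 partner, stood at 10.26 and 10.11 in MyoD+/- tumours, against 10.35, 10.49 and 10.06 in MyoD+/+ tumours (-0.12 ± 0.19, SE; limma adjusted p = 0.982). Tfdp2, encoding DP2, differed by -0.19 ± 0.39, ranging from 7.94 to 8.68 in MyoD+/- tumours and 8.06 to 9.26 in MyoD+/+ tumours, and its 4 tested probes had both signs. Its value turned to 0.18 without MyoD+/- tumour 2 and to 0.19 without MyoD+/+ tumour 2. Rbl2, the third pocket protein gene (p130), was detected in 0 tumours by either of its 2 probes. Of 6 genes of the MuvB core and B-Myb, which form the DREAM repressor complex with E2F4 and p107 or p130 and its later activating form, 3 were tested. Among them the histone-binding subunit Rbbp4 differed by -0.34 ± 0.27 and Lin54, the DNA-binding subunit, by 0.13 ± 0.21, neither passing. The other 3 tested Rbbp4 probes gave -0.17 ± 0.20, 0.05 ± 0.20 and 0.45 ± 0.23. The last was detected in 3 tumours only. In it the MyoD+/- tumours lay above all MyoD+/+ tumours, as for 10.6% of all probes.

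The genes that set pocket protein phosphorylation had differences of both signs. Of 15 cyclins, kinases and inhibitors 14 were tested, 7 above and 7 below 0, with a median of 0.01 and 0 past the threshold. The median was 0.18 without MyoD+/- tumour 2, 0.20 under the stricter filter, 0.21 with median scaling and -0.11 without a filter. Cdkn2b, the inhibitor p15 of CDK4 and CDK6, stood at 6.84 and 7.47 in MyoD+/- tumours, against 5.92, 5.98 and 6.98 in MyoD+/+ tumours (0.86 ± 0.36; limma adjusted p = 0.943). The D-type cyclin gene Ccnd3 was below the MyoD+/+ range in both MyoD+/- tumours, at 9.39 and 9.58 against 9.92, 9.78 and 9.78 (-0.34 ± 0.17; adjusted p = 0.945), and its other probe gave -0.09 ± 0.25. Cdkn1c, the inhibitor p57, differed by -0.31 ± 0.19. Cdkn2a, the p16 and ARF locus, differed by -0.40 ± 0.29 on its brighter probe and by 0.52 ± 0.30 on the other, each detected in 4 tumours.

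Most genes that E2Fs switch on at G1/S were slightly above 0, with no gene passing. Of 45 listed genes 31 were tested, 22 above and 9 below 0, against 49.6% of all genes above 0. The median was 0.09, and 0 had an unadjusted p under 0.05. The groups did not overlap, with MyoD+/- higher, in 5 of the 31, against 10% of all genes. The licensing factor Cdt1 stood at 10.17 and 10.12 in MyoD+/- tumours, against 10.02, 9.93 and 9.64 in MyoD+/+ tumours (0.28 ± 0.18; limma adjusted p = 0.957). Gins2 of the replicative helicase differed by 0.38 ± 0.25 and the clamp loader subunit Rfc4 by 0.33 ± 0.19, with -0.03 ± 0.18 on the other Rfc4 probe. Pole, the leading strand polymerase, differed by -0.36 ± 0.21. The median of the list turned to -0.03 without MyoD+/- tumour 1 and to -0.03 without MyoD+/+ tumour 3.

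Among 20 genes of G2 and mitosis that DREAM represses, 14 were tested, 11 above and 3 below 0, against 49.6% of all genes above 0. The median was 0.15. The groups did not overlap in 3 of the 14 with MyoD+/- higher, against 10% of all genes, and in 1 with MyoD+/- lower, against 10.9%. At an unadjusted p under 0.05 there were 2, both higher, against 2.49% of all genes. Tpx2, a spindle assembly factor, stood at 7.22 and 7.18 in MyoD+/- tumours, against 6.46, 5.93 and 6.33 in MyoD+/+ tumours (0.96 ± 0.20; limma adjusted p = 0.911), and at a difference of 0.45 without background correction. The mitotic kinase gene Plk1 differed by 0.40 ± 0.17 (adjusted p = 0.943). Foxm1, the transcription factor of the G2 genes, differed by -0.34 ± 0.27 (0.04 ± 0.24 on its other probe) and the spindle motor Kif11 by -0.21 ± 0.17. Leaving out MyoD+/- tumour 1 gave a list median of 0.04, and leaving out MyoD+/+ tumour 3 gave 0.08.

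The family and its target lists were also followed tumour by tumour. With each gene centred on its mean over the 5 tumours, the median over the tested members was 0.18 and 0.00 in MyoD+/- tumours, against -0.05, 0.05 and -0.11 in MyoD+/+ tumours. Over the G1/S targets it was 0.17 and -0.07 in MyoD+/- tumours and 0.01, 0.12 and -0.21 in MyoD+/+ tumours. Over the G2 and mitosis genes it was 0.19 and -0.03 in MyoD+/- tumours, against -0.12, 0.09 and -0.16 in MyoD+/+ tumours. MyoD+/- tumour 1 was highest and MyoD+/+ tumour 3 lowest in all 3, and MyoD+/+ tumour 2 exceeded MyoD+/- tumour 2, so the groups overlapped. MyoD+/+ tumour 3 was also lowest in some other lists, at -0.14 for granule neuron precursor, -0.20 for astrocyte and -0.22 for microglial markers. The same held at -0.16 for the cyclins, kinases and inhibitors, a list that shares Ccne2 with the G1/S targets. In further lists it was not lowest, such as the E2F6 complex (-0.02), corepressors and Rb-binding proteins (0.05), granule neuron (-0.01) and oligodendrocyte markers (0.02). For endothelial markers it was highest (0.21). MyoD+/- tumour 1 is 1 of the 2 tumours with high Xist, and the part of sex in these values was not tested. The sample titles of MyoD+/- tumour 1 and MyoD+/+ tumour 2 share the letter V and those of MyoD+/- tumour 2 and MyoD+/+ tumour 3 the letter P, and the labels do not say what the letters stand for. With the title letters as a block the median difference was 0.22 over the members, 0.14 over the G1/S targets and 0.12 over the G2 and mitosis genes.

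**Figure D5:**
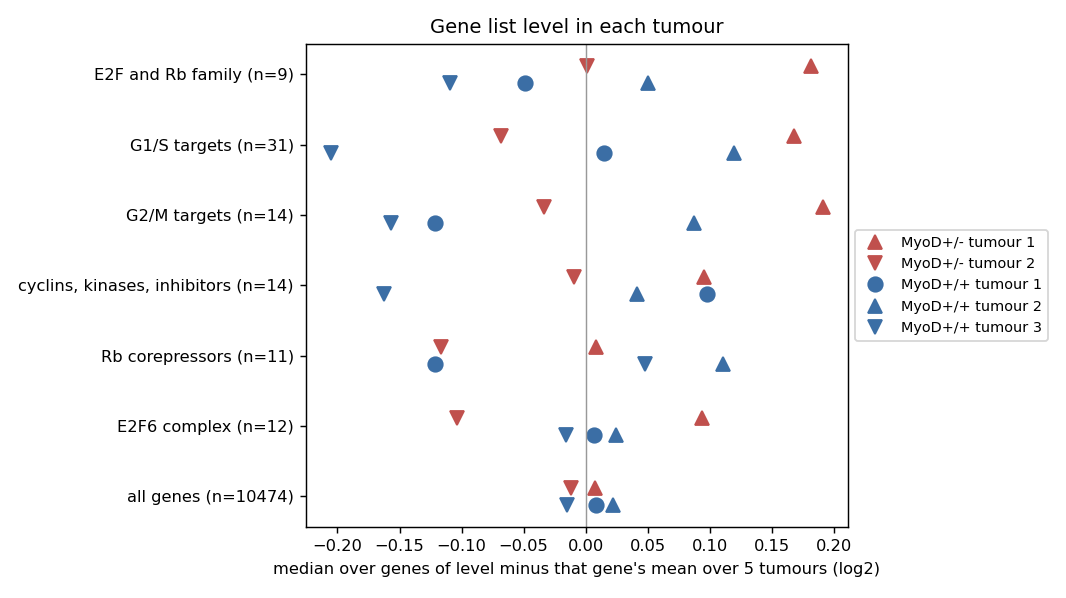
Median level of each gene list in each tumour, after each gene was centred on its mean over the 5 tumours (log2, horizontal axis), for MyoD+/- (red) and MyoD+/+ (blue) tumours. Upward triangles share the title letter V and downward triangles the letter P. In the family and both target lists MyoD+/- tumour 1 stands highest and MyoD+/+ tumour 3 lowest. The row of Rb corepressors also holds other Rb-binding proteins.

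The E2F6 complex and a list of pocket protein corepressors and other Rb-binding proteins also had both signs. Of 13 genes of the Polycomb complex that holds E2F6, 12 were tested, 6 above and 6 below 0 (median -0.05, and 0.13 without MyoD+/- tumour 2), with 0 at an unadjusted p under 0.05. Its members of smallest p were the heterochromatin protein Cbx3 (0.28 ± 0.20), Yaf2 (0.35 ± 0.26), Rybp (0.21 ± 0.17) and the ubiquitin ligase Rnf2 (-0.16 ± 0.17). Of 5 germline genes known to be silenced through E2F6 in mouse cells, 3 were tested, 1 above and 2 below 0 (median -0.45). Stag3, a meiotic cohesin subunit, stood at 6.40 and 6.01 in MyoD+/- tumours, against 5.44, 5.34 and 5.24 in MyoD+/+ tumours (0.87 ± 0.19; limma adjusted p = 0.911), and differed by 0.28 without background correction. The testis tubulin gene Tuba3b differed by -0.68 ± 0.28 (adjusted p = 0.943), and its probe may also read its close copy Tuba3a, which differed by -0.45 ± 0.20 and, like Tuba3b, was lower in both MyoD+/- tumours than in any MyoD+/+ tumour. Of 11 tested genes in the list of corepressors and Rb-binding proteins, 6 were above and 5 below 0 (median 0.01, and -0.11 without MyoD+/- tumour 1). Rbbp6, an Rb-binding ubiquitin ligase, stood at 6.29 and 6.11 in MyoD+/- tumours, against 7.0, 6.91 and 7.08 in MyoD+/+ tumours (-0.80 ± 0.17; adjusted p = 0.911, and -0.36 without background correction). Its other tested probe, detected in 2 tumours, gave -0.34 ± 0.19, also without overlap. Arid4a, an Rb-binding subunit of the Sin3 complex, differed by 0.50 ± 0.21 on its brighter probe and by -0.14 ± 0.18 on the other. The histone demethylase Kdm5a differed by 0.37 ± 0.18, and by 0.53 ± 0.21 on its other tested probe, which was detected in 2 tumours. The remodelling ATPase Smarca4 differed by -0.29 ± 0.20.

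Markers of other cells were set beside these values. Of 9 oligodendrocyte markers with a probe 8 were tested and all 8 had lower values in MyoD+/- tumours, with groups that did not overlap, as for 10.9% of all genes. Of these 7 had an unadjusted p under 0.05, against 2.77% of all genes lower in MyoD+/- tumours, and 0 passed an adjusted p of 0.05. Their summed level, on the linear scale, was 3130 and 3531 in MyoD+/- tumours and ranged from 5719 to 7665 in MyoD+/+ tumours. The summed level of 8 astrocyte markers was 12618 and 15379 in MyoD+/- tumours and 12758 to 17648 in MyoD+/+ tumours. For 6 microglial markers the sums were 2699 and 2313 in MyoD+/- tumours, against 2024 to 2723 in MyoD+/+ tumours. Granule neuron precursor sums overlapped too, at 14816 and 14039 in MyoD+/- tumours and 13516 to 14581 in MyoD+/+ tumours. For 6 granule neuron markers, all above 0 with a median difference of 0.18, the sums were 21425 and 23348 in MyoD+/- tumours, against 21033, 16581 and 21839 in MyoD+/+ tumours. Of 7 endothelial markers 1 was above 0 (median difference -0.09), with sums of 1628 and 1596 in MyoD+/- tumours, against 1432 to 1819 in MyoD+/+ tumours. Among all genes 49.6% were above 0. The part of the oligodendrocyte and granule neuron differences in the E2F and Rb family values was not tested.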

How the data were processed

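RNA from 5 tumours was hybridised to Illumina mouse bead arrays, as biotin-labelled cRNA made with an Ambion MessageAmp kit per the labels' protocols. The authors deposited a non-normalized signal intensity and a detection p-value of every probe on every array, per the file headers. The authors also deposited processed values, found here to be quantile-normalized log2 signals (sorted values within 0.00360 of that scale). No scanner or software is named in the labels. The number of arrays limits the precision.

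The neqc function of limma 3.58.1, under R 4.3.3, normalized the signals (offset 16), its negative controls being derived from detection p-values. Of 45281 probes 18675 were tested, and 34885 had 1 symbol in the platform annotation, 18 several and 10378 none here. Symbols were checked through Entrez identifiers against a RefSeq table (34807 matched, 0 changed). A gene was its probe with the highest mean level, which gave 10474 genes. The genotype difference came from lmFit and eBayes of limma (two-sided, no covariate), Benjamini-Hochberg adjusted over all genes, or over all probes for probes that do not stand for a gene. The fit was tested on simulated data. For a probe not detected in a whole group, the values of that group were raised to the lowest detected level per array and the means compared, without a sampling error.

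The members and lists were chosen with earlier results of these data known. All members were named, and from each partner or target list the 4 genes of smallest unadjusted p (2 for lists under 10 genes). Tuba3a, Rbl2 and Trp73 were named outside this rule, as were the S phase and division genes of the last paragraph. Alternatives changed the background correction, the scaling, the offset (50), the filter (none, or stricter), the use of probes (their mean) and the variance model (trend with robust fit, or array weights), used the authors' values, blocked on title letters or left a tumour out. With 5 tumours no correlation across samples was computed.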

Additional observations from a re-analysis of the deposited data

How the results depend on the processing

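Under 15 alternatives no member and no member probe passed the threshold. Over all genes the number past it was 0 as reported, 2 with a variance trend and robust estimation (Gdpd3 and Mbp) and between 0 and 1 with 1 tumour left out (Gdpd3 without MyoD+/+ tumour 2, Zdbf2 without MyoD+/+ tumour 3), and these genes are named only because their number is small. The differences of E2f2, E2f3, E2f5, E2f7 and Rbl1 kept their sign in every alternative that could be fitted, and the stricter filter gave no value for E2f3 and E2f7. Signs turned for E2f6 with median scaling (0.0913), where the median of all genes itself shifted to 0.14, so that E2f6 stayed below it, for Rb1 with the mean of probes (-0.11) and for E2f1 with the title letters as a block (-0.0399). With 1 tumour left out the ranges were -0.0399 to 0.0995 (E2f1), -0.17 to 0.27 (E2f4), -0.1968 to 0.0377 (E2f6) and -0.13 to 0.18 (Rb1). The cause was not tested. Without background correction or offset the dim members shrank most, E2f3 to 0.14, E2f7 to 0.12 (0.40 as fitted) and Rbl1 to 0.22, and the authors' processed values gave the same to 2 decimals for E2f3 and E2f7.

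The replicate numbers follow accession order and pair nothing. The title letters V and P recur in both genotypes, and over all genes the deviations from the group means correlated at 0.36 (V) and 0.32 (P). Genes are not independent of each other. Nor are the 2 correlations, since the deviations of the 2 MyoD+/- tumours from their mean are exact opposites. With 2 such pairs this does not settle a pairing. The replicate block on title letters leaves MyoD+/+ tumour 1, the sole tumour of its letter, without weight and gave 0 genes past the threshold, 879 with an unadjusted p under 0.05 (8.39%, against 551 as reported), and 2 of 9 members among them.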

Other observations

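Death genes known as E2F1 targets had differences of both signs. Of 8 listed genes 6 had a probe and 4 were tested, 3 above and 1 below 0, with a median log2 difference of 0.06 and 0 past the threshold. Bbc3, the BH3 protein PUMA, stood at 9.34 and 9.54 in MyoD+/- tumours, against 9.20, 9.39 and 9.23 in MyoD+/+ tumours (0.17 ± 0.17, SE; limma adjusted p = 0.963), and its other probe gave -0.18 ± 0.20. Cdkn2a, also on this list, had the smallest p in it (-0.40 ± 0.29). That probe was detected in 1 MyoD+/- tumour and 3 MyoD+/+ tumours, and the other Cdkn2a probe gave 0.52 ± 0.30. The p53 relative Trp73 was detected in 0 tumours.

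Detection also varied with probe design over the whole array. Of 30428 probes named through a RefSeq transcript 47.6% passed the detection filter, against 31.5% of 4457 probes named through another accession. Among listed S phase and division genes, named after their values were seen, Pcna and Ccne1 had their best probe detected in 1 tumour, and Ccna2, Ccnb2 and Ube2c in 0, while Cdt1, Mcm5 and Top2a were detected in all 5.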
